A study of Mus musculus with 6 samples.

Results

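The genes described here are 36 genes of glycolysis and of the cell's response to low oxygen, compared in mouse prostate basal epithelial cells between proximal and distal ducts. They form a list of genes named for their roles. The rule for membership uses no measured value, but the list was chosen with earlier results of these data known. Transcripts in the deposited tables were matched to gene symbols, which gave values for 25273 genes, and all 36 genes were among them. All 36 had a mean of at least 1 FPKM, the deposited expression value (sequenced fragments divided by transcript length and by library size), and were among the 10255 genes tested. The cells came from C57BL/6 mice aged 8 to 12 weeks, with 3 libraries of basal cells from proximal ducts and 3 from distal ducts. The labels name no mutation, transgene or drug in either group. The protocols describe dissociation of the prostate and sorting of antibody-stained cells, without giving the gates for basal cells, and a culture of prostate stromal cells. Within each group the labels number the libraries 1 to 3. They do not say what a number stands for, and separate animals or pools are not mentioned. The p-values below therefore measure only library-to-library spread, part or all of which may be technical.

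Glycolysis splits glucose into pyruvate in the cytosol and yields ATP without oxygen. Glucose enters through the transporter encoded by Slc2a1 and is phosphorylated by hexokinases, and pyruvate is either burned in mitochondria or reduced to lactate by the enzyme of which Ldha encodes a subunit. Hypoxia-inducible factor (HIF) is a transcription factor whose alpha subunit, here Hif1a, is hydroxylated by the oxygen sensors Egln1 and Egln3 and then degraded. When oxygen is short, or when growth signals raise HIF, it binds short sites near its target genes. The targets include most enzymes of glycolysis, the angiogenic factor Vegfa, collagen hydroxylases, mitophagy receptors and Egln3 itself.

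The estimated depth of the 6 libraries was 20400000 to 26100000 fragments, and 9910 to 10301 genes reached 1 FPKM. The basal identity of the cells was visible in every library: the basal keratin Krt5 lay between 340 and 674 FPKM, Krt14 between 2121 and 3397 FPKM and the basal transcription factor Trp63 between 27.8 and 74.7 FPKM. The luminal keratin Krt8, at 474 to 661 FPKM, was also present in every library. In bulk RNA of this kind, fewer cells of a type and less RNA per cell cannot be told apart. All levels are FPKM, which are scaled to transcript length. Differences were taken after adding 1 FPKM and taking log2, so changes of genes at low levels come out smaller than they are.

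HIF is known to bind sites with the core letters ACGTG or GCGTG. Both strings were searched on both strands in the 250 bases before each RefSeq start (GRCm38.p6), and a CACGTG counts as ACGTG on either strand. Of the 36 genes, 34 had an entry, with 52 start sites, and Bnip3l and Ndrg1 had none. ACGTG was found before 50.0% of these starts, against 16.6% of the 32851 starts in the whole table. GCGTG was found before 53.8%, against 28.2%. One or the other was found before 78.8%, against 38.6% of all starts. Many of the genes were listed as HIF targets, so a higher share than over all starts was built into the list. Both strings contain CG, and the starts were not matched for base content. Some starts of a gene share the same match, as for Aldoa and Eno1. Gpi1 and Tpi1, which passed the comparison of library numbers below, had no match. Stretches from 7 genes that passed the comparison of library numbers below, chosen with their values known and overlapping no annotated exon, are shown so that the letters can be read beside the values that follow. Capitals mark the matches and their reverse complements CACGT and CACGC. The presence of these letters is a description and does not show binding in these cells.
Ero1l, chr14:45318591-45318675, minus strand: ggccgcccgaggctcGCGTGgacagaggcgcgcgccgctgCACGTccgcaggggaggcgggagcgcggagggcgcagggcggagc
Egln3, chr12:54204059-54204124, minus strand: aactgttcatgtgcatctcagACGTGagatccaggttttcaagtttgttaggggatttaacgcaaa
Pfkl, chr10:78009862-78009946, minus strand: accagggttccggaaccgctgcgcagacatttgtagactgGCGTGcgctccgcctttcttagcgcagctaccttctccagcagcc
Bnip3, chr7:138909569-138909653, minus strand: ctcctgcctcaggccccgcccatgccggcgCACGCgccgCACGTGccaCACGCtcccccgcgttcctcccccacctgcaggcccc
P4ha2, chr11:54100806-54100890, plus strand: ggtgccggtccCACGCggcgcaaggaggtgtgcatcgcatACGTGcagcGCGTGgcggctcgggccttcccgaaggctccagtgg
Ldha, chr7:46845730-46845803, plus strand: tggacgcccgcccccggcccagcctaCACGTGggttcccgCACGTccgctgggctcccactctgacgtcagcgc
Ddit4, chr10:59951913-59951997, minus strand: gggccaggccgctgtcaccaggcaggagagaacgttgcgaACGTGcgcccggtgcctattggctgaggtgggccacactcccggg

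In both regions the library numbered 1 held less RNA of these genes than the libraries numbered 2 and 3. The summed level of the 36 genes was 2902, 4196 and 4840 FPKM in distal libraries 1, 2 and 3, and 2717, 3866 and 4498 FPKM in proximal libraries 1, 2 and 3. This was 0.741% of all matched FPKM in distal library 1 and 0.721% in proximal library 1, and between 1.11% and 1.27% in the other 4. The comparison by library number was chosen with earlier results of these data known. Its counts and p-values therefore describe a split that was not fixed beforehand. With limma and Benjamini-Hochberg adjustment over all genes, 19 of the 36 genes were lower in the libraries numbered 1 and 0 were higher. Over all 10255 genes tested, 3.09% were lower and 3.92% were higher, together 7.01%. At an unadjusted p under 0.05, 28 of the 36 were lower and 1 was higher, against 12.6% of all genes lower and 15.4% higher. The difference was negative for 33 of 36 genes, against 49.5% of all genes, and its median was -0.56, against 0.00 over all genes.

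**Figure D1:**
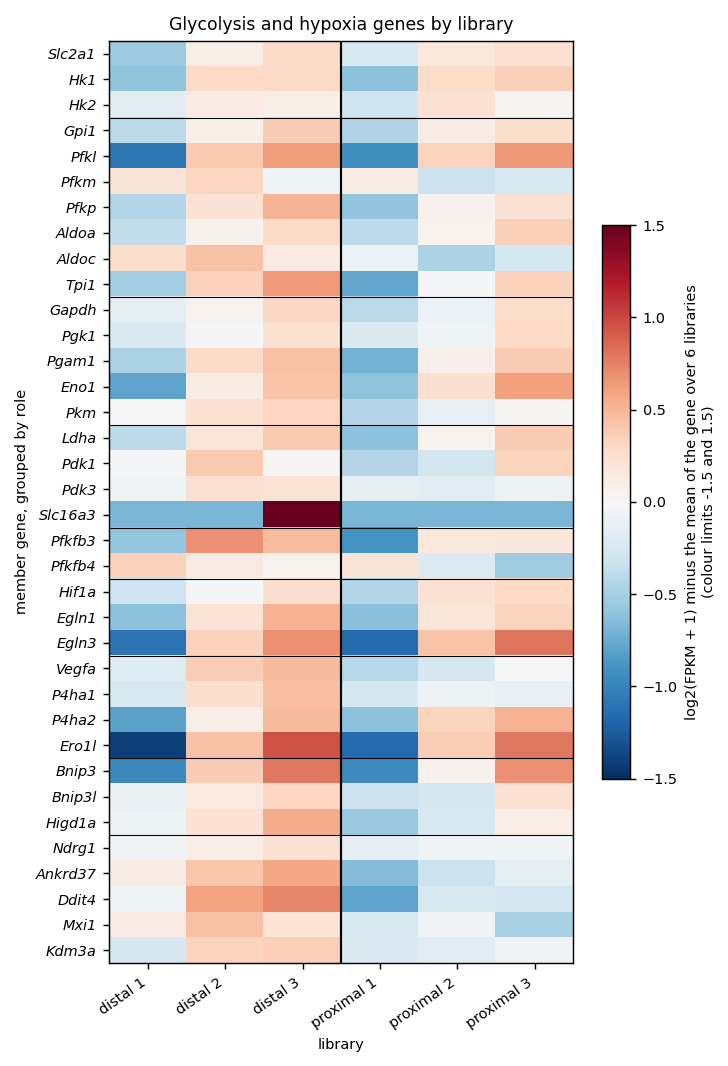
Level of each of the 36 genes (rows, grouped by role with horizontal lines) in the 6 libraries (columns), as log2(FPKM + 1) minus the mean of the gene over the 6 libraries, with the vertical line between distal and proximal libraries. The columns of library 1 are blue, that is low, for most rows in both regions, and 30 of the 36 genes were lowest in library 1 in both.

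The glucose transporter and hexokinases stood at high to moderate levels. Slc2a1, which encodes the glucose transporter GLUT1 and lies at chr4:119108711-119137983 (mm10, plus strand), had 399, 619 and 706 FPKM in distal libraries 1, 2 and 3 and 497, 647 and 682 FPKM in proximal libraries 1, 2 and 3. Library 1 was the lowest of each group, by 1.66-fold against the mean of libraries 2 and 3 in distal cells and 1.34-fold in proximal cells (log2 difference -0.57, SE 0.11, adjusted p = 0.0274). Hk1, the housekeeping hexokinase, was at 24.3, 46.1 and 45.8 FPKM in distal and at 24.1, 45.2 and 48.0 FPKM in proximal libraries 1, 2 and 3. Its libraries 2 and 3 were nearly equal in each region, and library 1 was 1.89-fold and 1.93-fold lower (log2 difference -0.91, SE 0.07, adjusted p = 0.00334). Hk2, the hexokinase induced by HIF and growth signals, was at 42.7, 52.4 and 50.7 FPKM in distal and 38.8, 56.0 and 48.6 FPKM in proximal libraries 1, 2 and 3. It was lowest in library 1 of both regions, and its difference did not pass (adjusted p = 0.0595).

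In the upper part of the pathway, from glucose 6-phosphate to the triose phosphates, 5 of 7 genes were lower in the libraries numbered 1. Pfkl and Pfkp encode the liver and platelet subunits of phosphofructokinase, the committing step. Pfkl was at 24.4, 69.4 and 82.4 FPKM in distal and at 27.3, 66.9 and 83.5 FPKM in proximal libraries 1, 2 and 3. This was a 3.11-fold difference in distal and a 2.75-fold difference in proximal cells (log2 difference -1.51, SE 0.12, adjusted p = 0.00332). Pfkp was at 39.2, 62.3 and 76.6 FPKM in distal and at 35, 55.9 and 62.7 FPKM in proximal libraries 1, 2 and 3 (log2 difference -0.77, SE 0.10, adjusted p = 0.0141). The muscle subunit Pfkm was nearly silent, at 1.82 to 3.40 FPKM, and did not pass (adjusted p = 0.393). The isomerase gene Gpi1 was at 18.8, 27.0 and 33.1 FPKM in distal and at 18.3, 27.4 and 30.6 FPKM in proximal libraries 1, 2 and 3 (log2 difference -0.64, SE 0.11, adjusted p = 0.0211). Aldoa, the main aldolase, was at 314, 428 and 499 FPKM in distal and at 310, 424 and 521 FPKM in proximal libraries 1, 2 and 3 (log2 difference -0.58, SE 0.11, adjusted p = 0.0302). Its brain isozyme Aldoc stayed between 1.02 and 2.79 FPKM and did not pass. Triose phosphate isomerase, Tpi1, interconverts both products of aldolase. It was at 131, 237 and 293 FPKM in distal and at 108, 183 and 239 FPKM in proximal libraries 1, 2 and 3 (log2 difference -0.98, SE 0.13, adjusted p = 0.0139).

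In the lower part, from glyceraldehyde 3-phosphate to pyruvate, all 5 genes were lowest in library 1 of both regions, and 2 passed. Pgam1, the phosphoglycerate mutase, was at 119, 202 and 225 FPKM in distal and at 101, 175 and 216 FPKM in proximal libraries 1, 2 and 3 (log2 difference -0.89, SE 0.10, adjusted p = 0.0109). Eno1, the enolase, was at 38.6, 73.2 and 91.3 FPKM in distal and at 44.2, 79.8 and 104 FPKM in proximal libraries 1, 2 and 3 (log2 difference -1.05, SE 0.13, adjusted p = 0.0130). Its transcript of 1902 bases was listed at 0 in both libraries numbered 1 and held 17.1% to 22.5% of its FPKM elsewhere. These zeros enter the difference. The Eno1 transcript of 1776 bases alone was at 38.6, 58.3 and 63.45 FPKM in distal and at 44.2, 61.8 and 74.8 FPKM in proximal libraries 1, 2 and 3. Eno1 shares most of its sequence with an intronless copy, Eno1b, so the division of reads between the pair is uncertain. The other 3 enzymes of this stretch did not pass. Gapdh was at 200, 230 and 276 FPKM in distal and at 168, 210 and 268 FPKM in proximal libraries 1, 2 and 3 (adjusted p = 0.0842). Pkm, the pyruvate kinase, was at 243, 285 and 305 FPKM in distal and at 179, 224 and 246 FPKM in proximal libraries 1, 2 and 3 (adjusted p = 0.0530). Pgk1 lay between 83.3 and 120 FPKM (adjusted p = 0.131). The FPKM of Pkm were divided between a pair of transcripts of equal span and equal length (2432 bases), and the transcript with the higher value had 57.1% to 63.6% of the gene's FPKM in every library.

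Pyruvate is next shared between lactate and the mitochondria. Ldha was among the most abundant of the 36 genes, at 379, 561 and 649 FPKM in distal and at 324, 515 and 646 FPKM in proximal libraries 1, 2 and 3. Its library 1 was 1.60-fold lower in distal and 1.79-fold lower in proximal cells (log2 difference -0.75, SE 0.12, adjusted p = 0.0185). An Ldha transcript of 1505 bases was listed at 0 in proximal library 1 and held 13.4% to 16.8% of the gene's FPKM elsewhere. This 0 enters the proximal difference. The transcript of 1623 bases alone was at 324, 484 and 540 FPKM in distal and at 324, 432 and 559 FPKM in proximal libraries 1, 2 and 3. The kinases Pdk1 and Pdk3, which restrain the mitochondrial oxidation of pyruvate, were low, at 1.94 to 4.21 and 6.76 to 9.22 FPKM, and did not pass. The lactate exporter Slc16a3 was listed at 0 in 5 libraries and at 16.2 FPKM in distal library 3. Pfkfb3 and Pfkfb4 make fructose 2,6-bisphosphate, the activator of phosphofructokinase. Pfkfb3 was at 16.8, 42.0 and 35.8 FPKM in distal and at 13.3, 28.6 and 28.9 FPKM in proximal libraries 1, 2 and 3 (log2 difference -1.11, SE 0.09, adjusted p = 0.00334). Pfkfb4, at 2.64 to 5.67 FPKM, was highest in library 1 of both regions, with a difference that did not pass (0.41, SE 0.14, adjusted p = 0.123).

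Among the oxygen-sensing genes all 3 were lower in the libraries numbered 1. Hif1a was at 190, 233 and 278 FPKM in distal and at 174, 274 and 290 FPKM in proximal libraries 1, 2 and 3 (log2 difference -0.55, SE 0.10, adjusted p = 0.0292). The oxygen sensor Egln1, also called PHD2, was at 8.92, 16.5 and 20.7 FPKM in distal and at 8.85, 16.3 and 18.1 FPKM in proximal libraries 1, 2 and 3 (log2 difference -0.93, SE 0.12, adjusted p = 0.0130). Egln3 or PHD3, at chr12:54178981-54203860 (minus strand), is the sensor most strongly induced by HIF, and its start has the ACGTG shown above. Egln3 was at 39.6, 110 and 139 FPKM in distal and at 38.1, 116 and 151 FPKM in proximal libraries 1, 2 and 3. Library 1 was 3.15-fold lower in distal and 3.51-fold lower in proximal cells, with no overlap with libraries 2 and 3 (log2 difference -1.70, SE 0.13, adjusted p = 0.00332).

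**Figure D2:**
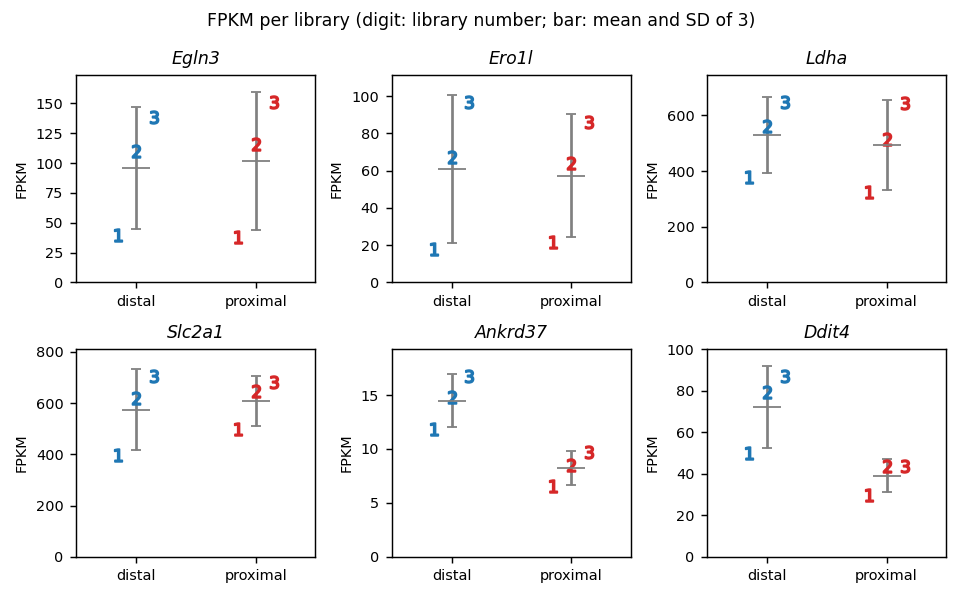
FPKM of 6 of the genes in each library, with the digit giving the library number, the horizontal bar the mean of 3 libraries and the vertical bar its SD. For Egln3, Ero1l, Ldha and Slc2a1 the digit 1 lies below 2 and 3 in both regions while the region means are close, and for Ankrd37 and Ddit4 the proximal values all lie below the distal values.

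The HIF targets with roles outside glycolysis held the gene with the largest difference of the 36. Ero1l (Ero1a in RefSeq), at chr14:45283087-45318771 (minus strand), encodes the oxidase that forms disulfide bonds in the endoplasmic reticulum. It was at 18.1, 67.4 and 97.0 FPKM in distal and at 21.5, 64.3 and 86.3 FPKM in proximal libraries 1, 2 and 3, which was 4.54-fold and 3.51-fold lower in library 1 (log2 difference -1.92, SE 0.18, adjusted p = 0.00508). P4ha1 and P4ha2 encode subunits of the collagen prolyl hydroxylase. P4ha2 was at 5.14, 10.3 and 13.8 FPKM in distal and at 5.98, 12.5 and 14.4 FPKM in proximal libraries 1, 2 and 3 (log2 difference -1.06, SE 0.13, adjusted p = 0.0130), and P4ha1, at 14.5 to 24.6 FPKM, did not pass (adjusted p = 0.0984). The angiogenic factor Vegfa was at 109, 160 and 171 FPKM in distal and at 91.7, 104 and 124 FPKM in proximal libraries 1, 2 and 3. Its library 1 was lowest in both regions, by 1.52-fold and 1.24-fold, and it was the call closest to the threshold (log2 difference -0.45, SE 0.11, adjusted p = 0.0489). Of the Vegfa transcripts, those of 3459 and 3327 bases held the FPKM, and the longer took 40.2% to 49.7% of it across the 6 libraries.

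Of the mitochondrial targets, the mitophagy receptor gene Bnip3 was called and its relative Bnip3l was not. Bnip3, at chr7:138890836-138909519 (minus strand), was at 7, 19.4 and 26.1 FPKM in distal and at 7.06, 15.4 and 24.1 FPKM in proximal libraries 1, 2 and 3. Library 1 was 3.25-fold and 2.79-fold lower, and libraries 2 and 3 also differed from each other (log2 difference -1.44, SE 0.19, adjusted p = 0.0139). Bnip3l lay between 10.8 and 17.4 FPKM (adjusted p = 0.176) and Higd1a, a modulator of the respiratory chain, between 13.0 and 29.3 FPKM (adjusted p = 0.0767). Among the growth and chromatin genes only Ddit4, which restrains the growth kinase mTORC1, passed. Ddit4 was at 50.0, 79.6 and 87.2 FPKM in distal and at 29.8, 43.9 and 43.7 FPKM in proximal libraries 1, 2 and 3 (log2 difference -0.63, SE 0.08, adjusted p = 0.0138). Ndrg1, a stress-response gene, lay between 272 and 348 FPKM, the histone demethylase gene Kdm3a between 30.1 and 46.5 FPKM and the MYC antagonist gene Mxi1 between 2.35 and 5.35 FPKM. These 3 did not pass (adjusted p from 0.105 to 0.793), and neither did Ankrd37 (adjusted p = 0.0609), described below.

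The median difference over the 36 genes was -0.60 in distal and -0.49 in proximal libraries, against -0.04 and 0.06 over all genes tested. Library 1 was the lowest of its group in both regions for 30 of 36 genes, against 22% of all genes. It was over 1.5-fold lower in both regions for 14 of 36 genes, against 1.46% of all genes. A test of whether the difference itself differed between regions called 0 of the 36 genes with limma and 12 of 10255, or 0.117%, over all genes. At an unadjusted p under 0.05 it gave 1 of 36 genes, or 2.78%, against 12.9% of all genes. Library 3 was above library 2 in both regions for 24 of 36 genes, against 30.2% of all genes, so the libraries numbered 2 and 3 were not alike either.

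**Figure D3:**
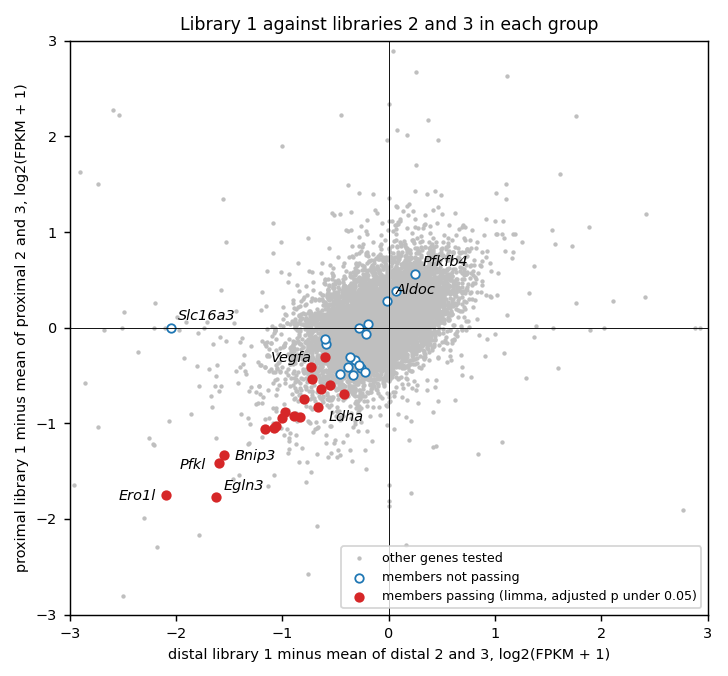
Each point is a gene, with the log2(FPKM + 1) of library 1 minus the mean of libraries 2 and 3 in distal cells (x axis) and in proximal cells (y axis). Grey points are all 10255 genes tested, those beyond 3 on either axis lying outside the frame, red points the 19 genes that passed and open points the 17 that did not. All red points lie at the lower left, with Ero1l, Egln3, Pfkl and Bnip3 farthest out.

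The number of calls depended on single libraries. Without distal library 1, the difference is that of proximal library 1 against proximal libraries 2 and 3. The median over the 36 genes is then the proximal value of -0.49 by construction. Without proximal library 1, it is likewise the distal value of -0.60. In both cases a lone library numbered 1 remains, whose own spread is not measured. Without distal library 3, 5 passed with limma (Egln3, Ero1l, Hk1, Pfkfb3 and Pfkl), all lower, against 0.146% of all genes lower. Without distal library 2, proximal library 2 or proximal library 3, 16, 17 and 17 passed, against 0.8%, 1.63% and 1.47% of all genes lower. Without the minimum level, 18570 genes entered, of which 13, or 0.07%, were lower, among them Egln3, Hk1, Pfkfb3 and Pfkl. Of all genes tested, 402 were higher and 317 lower in the libraries numbered 1. After median ratio scaling this was 322 and 372, after quantile normalization 210 and 295, and after removal of length and GC trends 251 and 260. With these 3 settings 19, 22 and 18 of the 36 genes were lower and 0 were higher.

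Other measures moved with the library number. Genes of the immediate early and heat shock response, which tissue dissociation is known to induce, had a summed level of 11634, 20140 and 20938 FPKM in distal and 8702, 9533 and 10538 FPKM in proximal libraries 1, 2 and 3. In the libraries numbered 1, 8 of the 21 tested genes of that list were lower and 2 higher, with a median of -0.59 in distal and -0.14 in proximal cells. Of 21 respiratory chain genes, 5 were higher in the libraries numbered 1 and 0 lower, against 3.92% and 3.09% of all genes. At an unadjusted p under 0.05, 17 of the 21 were higher and 0 lower, against 15.4% of all genes higher and 12.6% lower. None of the 21 differences was negative. Among the 5 was Ndufa4, at 468, 303 and 289 FPKM in distal and 427, 297 and 352 FPKM in proximal libraries 1, 2 and 3 (log2 difference 0.53, SE 0.10, adjusted p = 0.0317). None of the 15 basal markers was higher and 2 were lower, Trp63 and Cdh3. The basal list's summed level was 8029 to 9728 FPKM over the 6 libraries, and none of its genes was at 0 in all 6 libraries. The luminal list's summed level was 2221 to 3264 FPKM, with 1 of 11 tested genes lower and 0 higher. Among markers of other cell types the picture was mixed. Of 9 fibroblast, 6 smooth muscle and 3 nerve and glia markers tested, 0 passed for the library number. At an unadjusted p under 0.05, 0, 1 and 1 of these were lower and 0 higher. The endothelial list summed to 14.5, 3.04 and 5.47 FPKM in distal and to 31.6, 31.2 and 22.9 FPKM in proximal libraries 1, 2 and 3, with 0 of 7 genes passing and 3 higher at an unadjusted p under 0.05. The immune list summed to 37.4, 27.0 and 31.2 FPKM in distal and to 39.7, 22.5 and 23.4 FPKM in proximal libraries, with 1 of 4 genes higher. The erythroid list summed to 0.144, 4.77 and 5.05 FPKM in distal and to 4.28, 11.2 and 6.85 FPKM in proximal libraries, with 1 of 3 genes lower. Estimated depth was 20400000 and 22900000 fragments in distal and proximal library 1, within the range of the others or just below it. Across all genes the difference was correlated with log2 transcript length at r = -0.22 and across the 36 genes at r = 0.02, both across genes, which share the same libraries. The part of these measures in the lower levels of the 36 genes was not tested.

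Between the regions, the comparison of the study's design, Ankrd37 alone passed when all 6 libraries entered with no term for library number. It was lower in proximal cells, which is 1 of 36 genes against 2.5% of all genes lower and 7.02% in either direction. No gene of the 36 was higher in proximal cells, against 4.52% of all genes, and at an unadjusted p under 0.05 0 were higher and 6 lower, against 12.1% of all genes higher and 11.9% lower. The median difference was -0.19, against -0.01 over all genes, and 26 of 36 differences were negative, against 51.5% of all genes. Proximal and distal values did not overlap, with proximal lower, for 6 of the 36 genes (Aldoc, Pdk3, Ndrg1, Ankrd37, Ddit4 and Mxi1), against 13% of all genes. They did not overlap with proximal higher for 0 genes, against 15.8%.

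Ankrd37 encodes an ankyrin repeat protein and is a known HIF target. The gene lies at chr8:45996902-46005707 (minus strand), and the 250 bases before its start held 2 matches to ACGTG and 2 to GCGTG. It was at 11.9, 14.8 and 16.8 FPKM in distal and at 6.56, 8.51 and 9.68 FPKM in proximal libraries 1, 2 and 3, so that every proximal value lay below every distal value. The means were 14.5 ± 2.47 FPKM (SD, n = 3) in distal and 8.25 ± 1.58 FPKM (SD, n = 3) in proximal cells. The log2 difference was -0.74 (SE 0.17, limma adjusted p = 0.0416). It passed without distal library 1 (adjusted p = 0.0257) and failed without each of the others, at 0.160 without distal 2, 0.143 without distal 3, 0.0599 without proximal 1, 0.135 without proximal 2 and 0.0610 without proximal 3. It also failed without the minimum level (log2 difference -0.74, adjusted p = 0.0838) and after removal of length and GC trends (-0.69, adjusted p = 0.0727). Over all settings and left-out libraries the difference lay between -0.87 and -0.61.

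In this fit, with no term for library number, the other 35 genes did not pass between regions, and Ddit4 came closest. It had a mean of 72.3 ± 19.7 FPKM (SD, n = 3) in distal and 39.2 ± 8.11 FPKM (SD, n = 3) in proximal cells, and its highest proximal value of 43.9 FPKM lay below its lowest distal value of 50.0 FPKM. Its log2 difference was -0.85 (SE 0.23) with a limma adjusted p of 0.0690. For Aldoc the difference was -0.55 (adjusted p = 0.0829), for Mxi1 -0.51 (adjusted p = 0.0973), for Vegfa -0.44 (adjusted p = 0.203) and for Pkm -0.37 (adjusted p = 0.183). Slc2a1 averaged 574 ± 158 FPKM (SD, n = 3) in distal and 608 ± 98.0 FPKM (SD, n = 3) in proximal cells. Egln3 averaged 96.3 ± 51.1 and 102 ± 58.0 FPKM (SD, n = 3 each). For both genes the SD within a region, which includes library 1, was larger than the difference between the means. The 35 genes that did not pass had adjusted p-values from 0.0690 to 1.00. With a block for library number, which was not the main test, 8 of the 36 genes were lower in proximal cells and 0 higher. They were Ankrd37, Ddit4, Higd1a, Mxi1, Pfkfb3, Pkm, Tpi1 and Vegfa. Over all genes 7.14% were lower and 8.58% higher with the block.

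With both libraries numbered 1 left out, 7 of the 36 genes were lower in proximal cells and 0 higher, against 12.9% of all genes lower and 8.59% higher. The 7 were Ddit4 (log2 difference -0.91, adjusted p = 0.00317), Ankrd37 (-0.73, 0.0125), Kdm3a (-0.45, 0.0190), Vegfa (-0.54, 0.0242), P4ha1 (-0.45, 0.0333), Pfkfb3 (-0.42, 0.0391) and Aldoc (-0.65, 0.0469), each by limma on the 4 remaining libraries. None of the hexokinases or of the genes from Gapdh to Ldha was among them, though Pkm came close (-0.33, limma adjusted p = 0.0525). With distal library 1 alone left out, Ankrd37, Ddit4, Kdm3a, P4ha1 and Vegfa were lower, which is 5 of 36 genes against 5.99% of all genes lower and 4.99% higher. In libraries 2 and 3, Vegfa was at 160 and 171 FPKM in distal against 104 and 124 FPKM in proximal cells, and Kdm3a at 45.8 and 46.5 against 32.1 and 34.8 FPKM. Immediate early genes moved with this comparison too: 4 of 21 were lower in proximal cells in all 6 libraries and 18 without both libraries numbered 1. Endothelial markers summed to 3.04 to 14.5 FPKM in distal and 22.9 to 31.6 FPKM in proximal cells, with 6 of 7 tested genes higher. Of 9 fibroblast markers 6 were higher, and for 2 all proximal values lay below the distal values. The fibroblast list summed to 786 to 829 FPKM in distal and 717 to 786 FPKM in proximal cells. Of 3 markers of nerve and glia 2 were higher. Secretory markers summed to 1731 to 2255 FPKM in distal and 976 to 1076 FPKM in proximal cells, with 1 of 7 tested genes higher and 2 lower. Markers of proximal luminal progenitors summed to 964 to 1033 FPKM in distal and 1852 to 2142 FPKM in proximal cells, with 8 of 10 genes higher, and 5 of 15 basal markers were higher. Their part in the differences of the 36 genes was not tested.

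**Figure D4:**
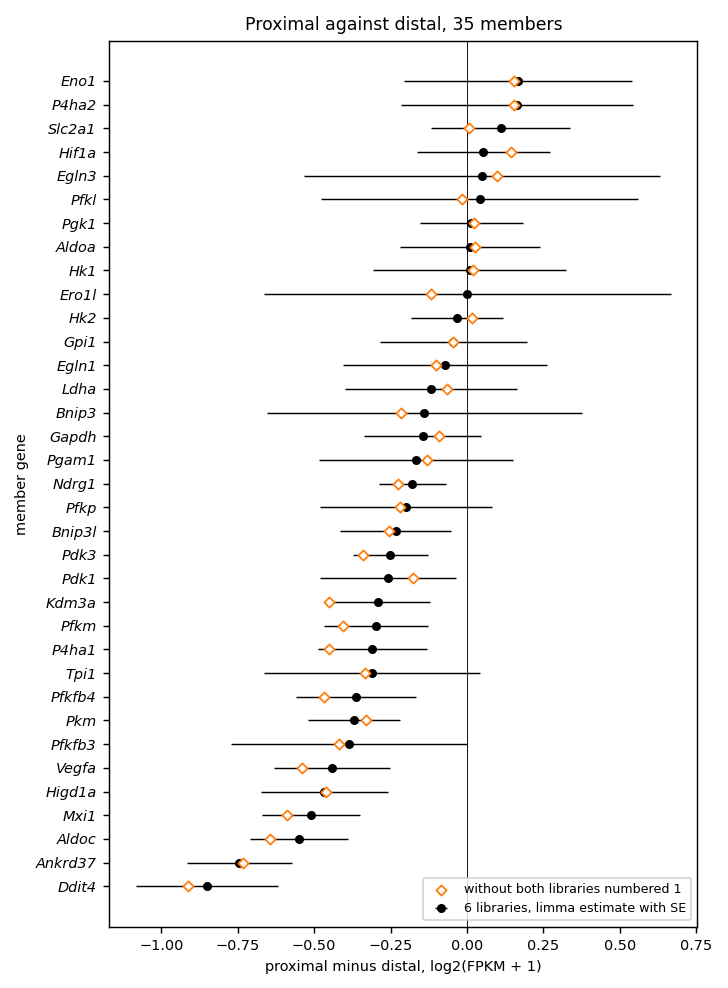
Proximal minus distal difference on the log2(FPKM + 1) scale for 35 of the 36 genes (Slc16a3, listed at 0 in 5 libraries, is left out). Filled points are the limma estimate from 6 libraries with its SE, and open diamonds the estimate without both libraries numbered 1. Ankrd37 and Ddit4 lie lowest, and the bars of Ero1l, Egln3, Pfkl and Bnip3, the genes that differed most by library number, are the widest.

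Other genes of the same pathways were looked up from lists. Of 40 further hypoxia targets 35 were tested. In the libraries numbered 1, 10 were lower and 1, Klf10, was higher, against 3.09% of all genes lower and 3.92% higher. Ak4, an adenylate kinase of mitochondria, was at 4.67, 13.4 and 16.1 FPKM in distal and at 3.01, 10.3 and 11.7 FPKM in proximal libraries 1, 2 and 3 (log2 difference -1.52, SE 0.12, adjusted p = 0.00332). Bhlhe40, a circadian and hypoxia-induced repressor, had a difference of -1.05 (SE 0.11, adjusted p = 0.00735), the vasodilator peptide gene Adm one of -1.17 (SE 0.14, adjusted p = 0.0108) and Pnrc1, a nuclear receptor coactivator, one of -0.79 (SE 0.12, adjusted p = 0.0171). The median over the 35 genes was -0.35. Between regions, 2 of the 35 were higher in proximal cells and 5 lower, against 4.52% of all genes higher and 2.5% lower. Igfbp3, which binds insulin-like growth factors, was at 10.9 to 23 FPKM in distal and 51.7 to 71.4 FPKM in proximal cells (log2 difference 1.90, SE 0.25, adjusted p = 0.00491), and the carbonic anhydrase gene Car12 was also higher (0.77, SE 0.14, adjusted p = 0.0154). The lower genes with the smallest p were the nuclear receptor gene Rora (-0.76, SE 0.13, adjusted p = 0.0137), Jmjd6 (-0.64, SE 0.11, adjusted p = 0.0154), the growth factor gene Tgfa (-0.68, SE 0.13, adjusted p = 0.0238) and Wsb1 (-0.71, SE 0.15, adjusted p = 0.0300).

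Further lists, here and in the next paragraph, cover other metabolic genes and regulators. Over all genes tested, 3.09% were lower and 3.92% higher in the libraries numbered 1. In proximal cells 4.52% were higher and 2.5% lower. Of 9 other glycolysis genes tested, 1 was lower in the libraries numbered 1, Pgm1 (-0.65, SE 0.13, adjusted p = 0.0344), while 3 were higher and 1 lower at an unadjusted p under 0.05. The median of this list was positive, at 0.07 in distal and 0.40 in proximal libraries, and 3 of the 9 differences were negative. Of these genes 0 passed between regions in either direction, with 0 also at an unadjusted p under 0.05. In the list on the fate of pyruvate and lactate, 2 of 15 genes were higher in the libraries numbered 1, the mitochondrial pyruvate carrier genes Mpc1 (0.41, SE 0.08, adjusted p = 0.0318) and Mpc2 (0.54, SE 0.10, adjusted p = 0.0240). In that list the lactate transporter gene Slc16a1 was lower in proximal cells, at 55.7 to 63.0 FPKM against 87.7 to 91.2 FPKM in distal cells (-0.59, SE 0.09, adjusted p = 0.0109), and the phosphatase gene Pdp1 was higher (0.60, SE 0.12, adjusted p = 0.0291). Of 7 pentose phosphate genes, Pgd, an NADPH-producing dehydrogenase, was higher in proximal cells, at 32.2 to 39.9 FPKM against 18.6 to 19.0 FPKM (0.91, SE 0.11, adjusted p = 0.00322). None of the 7 passed for the library number (1 at an unadjusted p under 0.05).

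Among 13 tested regulators of the HIF pathway, Epas1, which encodes the HIF-2 alpha subunit, was higher in proximal cells, at 12.7 to 18.2 FPKM against 7.71 to 10.8 FPKM (0.76, SE 0.17, adjusted p = 0.0372). In the libraries numbered 1, Eloc and Rbx1, parts of the ligase that degrades HIF, were higher (0.53, SE 0.08, adjusted p = 0.0181 and 0.47, SE 0.10, adjusted p = 0.0340). Of 9 glycogen genes, Gys1, the glycogen synthase, and Gsk3b, its inhibitory kinase, were lower there (-0.90, SE 0.15, adjusted p = 0.0213 and -0.41, SE 0.09, adjusted p = 0.0427), and 0 passed between regions (3 at an unadjusted p under 0.05). Of 9 genes of the ATF4 stress response, Vldlr was higher in proximal cells (0.81, SE 0.17, adjusted p = 0.0280) and 0 passed for the library number (1 at an unadjusted p under 0.05). Gluconeogenesis and other glucose uptake genes, 3 tested in each list, had 0 passing in either comparison (1 at an unadjusted p under 0.05 in each list).

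**Figure D5:**
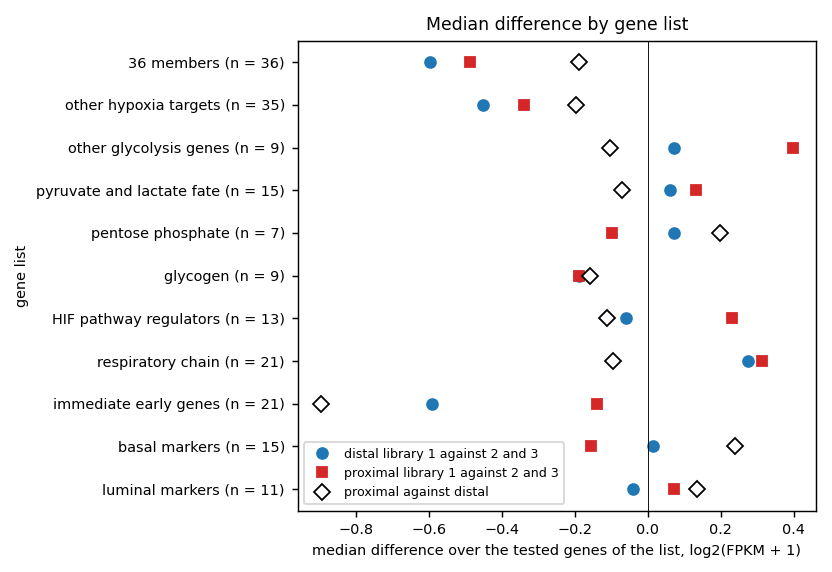
Median difference on the log2(FPKM + 1) scale over the tested genes of each list, for library 1 against libraries 2 and 3 in distal cells (circles) and proximal cells (squares) and for proximal against distal cells (diamonds). The 36 genes, at -0.60 and -0.49, and the other hypoxia targets, at -0.45 and -0.34, lie to the left in both regions, and the respiratory chain list, at 0.27 and 0.31, to the right.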

How the data were processed

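Total RNA was made into cDNA with random and oligo(dT) primers, and the libraries were read on an Illumina instrument, per the labels' protocols. These do not say whether strand was kept. Per the submitters' processing notes, the authors used bcl2fastq 1.8.3, TopHat and Cufflinks on mm10. Their versions and the transcript annotation are not given in the sources used here. Each deposited file lists FPKM with an interval, and a coverage signal that was not used as a measurement, for 63241 transcripts, per the file headers.

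Transcripts were matched to GENCODE M21 genes (GRCm38, the assembly of mm10) by position and length. The share of span in common times the ratio of lengths had to reach 0.5 and no second gene 0.8 of that score (49609 transcripts), or else exons of 1 gene had to fill 0.8 of the length (3714). The matched transcripts held 93.9% of FPKM and were summed per gene. Of 2000 reference transcripts with altered ends and lengths, 89.8% were assigned, 99.9% of these to the right gene. Depth was estimated from the deposited intervals. An exact 0 can be a failed estimate.

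The test was limma 3.58.1 in R 4.3.3 on log2(FPKM + 1), for all genes whose mean reached 1 FPKM (two-sided, variance trend, Benjamini-Hochberg over all genes, threshold 0.05), after checks on simulated data. The region test had no covariate. The test of library number 1 had region as a term. Values were not rescaled. FPKM are not counts, so no count model was used. The members, the lists, the library number contrast and the tests were chosen with earlier results of these data known. Values per library are given for members called in either comparison, members over 1.5-fold apart in library 1 in both groups, and Slc2a1, Hk2, Ldha, Pkm, Gapdh, Hif1a, Vegfa, Bnip3 and Egln3. From the other pathway lists up to 4 called genes with the smallest p are named, and other genes beside a result were named after their values were seen. The alternatives were another pseudocount (0.1), no minimum or one of 5 FPKM, other scalings, no variance trend, closely matched transcripts, a replicate block, leaving out libraries and, added after the data were seen, removal of length and GC trends.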

Additional observations from a re-analysis of the deposited data

How the results depend on the processing

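Between regions, 1 of the 36 genes passed, and this count became 0 without the minimum level, 0 after removal of length and GC trends, 8 with a replicate block, 7 without both libraries numbered 1 and 0 to 5 with 1 library left out. Over all genes the regional count of 720 became 441 at a minimum of 5 FPKM, 1612 with the block, 2209 without both libraries numbered 1 and 237 to 1126 with 1 library left out. For the library number, the count of 19 became 4 without the minimum level and 0 to 17 with 1 library left out, and the count of 719 over all genes became 23 without the minimum level, 240 without the variance trend and 20 to 394 with 1 library left out. Where 1 number 1 library is left out, the lone one is assumed to vary like the others. The other settings called 14 to 22 members, 14 to 19 of them among the 19. The members' median for the library number was -0.68 to -0.53 over the settings and -0.61 to -0.47 with 1 library left out. The regional median of -0.19 was -0.22 to -0.14 over the settings and -0.42 to 0.01 with 1 library left out. Signs changed in at least 1 setting for 19 members between regions (adjusted p of 0.638 or more) and for 3 by number. Deviations of same-numbered libraries correlated at 0.383, 0.045 and 0.286 for numbers 1, 2 and 3. Library 1 of each region correlated at -0.37 to -0.147 with numbers 2 and 3 of the other region. Libraries numbered 2 correlated better with number 3 of the other region than with each other. The numbers were therefore not taken to pair the libraries in the region test. The test of library number 1 did pool the libraries numbered 1 of both regions. With the block, all 8 genes (Ankrd37, Ddit4, Higd1a, Mxi1, Pfkfb3, Pkm, Tpi1 and Vegfa) were lower in proximal cells, against 7.14% of all genes. The cause of these changes was not tested.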

Other observations

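Eno1b, the intronless copy of the enolase gene, was looked up after the values of Eno1 were seen. It was listed at 116, 212 and 258 FPKM in distal and at 130, 240 and 303 FPKM in proximal libraries 1, 2 and 3, above Eno1 in every library. Its difference for the libraries numbered 1 was -1.03 (SE 0.12, limma adjusted p = 0.0108), close to the -1.05 of Eno1. Which share of these reads belongs to which gene cannot be read from the deposited values.

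For 20 of the 36 genes a single transcript held all FPKM, and for 16 it was divided between transcripts. In proximal library 3 the division stood apart from the other libraries for some of them, of which 3 are given here. The longer Mxi1 transcript (5156 bases) took 68.6% of the gene's FPKM there and 16.5% to 26.0% elsewhere. A Pdk1 transcript of 1162 bases took 55.3% there and was listed at 0 elsewhere. An Aldoa transcript of 1461 bases took 12.4% there and was listed at 0 elsewhere. Other libraries stood apart for other transcripts. A Pfkfb3 transcript of 2203 bases was listed at 0 in distal library 3 and took 27.3% to 33.5% elsewhere. A Pdk1 transcript of 4966 bases took 21.4% in distal library 2 and was listed at 0 elsewhere.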
